A study of Homo sapiens with 6 samples.

Results

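LINC symbols are given to long noncoding RNAs that are transcribed mainly from stretches between protein-coding genes. In MACE-Seq data labelled as the leukemia cell line SEM, 1165 of the 35410 listed genes carried such a symbol, and 202 of them (17.3%) were counted well enough to be described here. A LINC RNA was selected on its counts, when it had at least 10 counts in each of the 3 SEM::EGR3 libraries or in each of the 3 SEM::mock libraries. Of the others, 893 had some counts and 70 had none in any library. Because the counts themselves chose these RNAs, the number found in only 1 line is a description and carries no test.

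Per the labels, both lines derive from SEM, an established human proB leukemia line with the KMT2A::AFF1 fusion. SEM::EGR3 carries a doxycycline-inducible EGR3 vector and SEM::mock the empty vector, and each was treated with 1 µg/mL doxycycline for 48 h before RNA was taken in 3 biological replicates. MACE-Seq counts reads from the 3′ ends of polyadenylated RNAs, so that LINC RNAs without a poly(A) tail are not measured. There is 1 line per vector, so that an effect of EGR3 and a difference between the lines cannot be told apart. The spread between replicates is that of cultures of the same line, and in such bulk samples fewer expressing cells and less RNA per cell cannot be told apart.

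Long intergenic RNAs are usually less abundant and more restricted to certain tissues than mRNAs, and many lie close to genes of developmental regulators. Some act in the nucleus near the site where they are made, others bind proteins or microRNAs in the cytoplasm, and a few have been found to encode small proteins. EGR3 is a zinc finger transcription factor of the early growth response family, whose members bind a GC-rich element and are induced by receptor signals in lymphocytes.

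EGR3 itself was read 8, 10 and 6 times in SEM::mock and 9768, 4952 and 5557 times in SEM::EGR3. The library totals were 5286115 to 6181388 counts for SEM::mock and 7293092 to 15106018 for SEM::EGR3, so that 10 counts in SEM::mock stood for a level of 1.68 to 1.96 and in SEM::EGR3 for one of 0.645 to 1.35 CPM (TMM-normalized counts, scaled to 1000000 per library). The markers of the labelled proB identity were almost absent from SEM::mock. Of 10 B-lineage markers, 7 had at most 3 counts in every SEM::mock library, among them PAX5 with 1, 1 and 2 counts and EBF1 with 0 in each. The summed level of these markers was 2.47 to 5.69 CPM in SEM::mock and 471 to 503 CPM in SEM::EGR3, while DNTT and CD34 were at 0 to 2 counts in all 6 libraries. Of the erythroid markers, HBA1 was at a mean of 514.9 CPM in SEM::mock and 1497 CPM in SEM::EGR3, HBA2 at 212.6 and 1080.0 CPM and ALAS2 at 188.1 and 102.8 CPM, while HBB was at 0 to 2 counts in all libraries. Summed T cell markers were 59.6 to 64.9 CPM against 8.45 to 10.6 CPM, mainly CD3D, and 3 of these 6 markers had at most 3 counts in every SEM::mock library. Summed myeloid markers were 275 to 284 CPM against 91.6 to 93.3 CPM, carried by LYZ and CD33, while MPO had 0 counts in SEM::mock. The libraries labelled SEM::mock thus go against the labelled proB identity, and SEM::mock below stands for the libraries with that label. Whether both lines come from the same cells, and whether the SEM::EGR3 libraries also hold RNA of cells like those of SEM::mock, was not tested. Every fold and every on, rose or fell call compares the libraries as labelled, and the part of these identity differences in the LINC results was not tested.

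Of the 202 LINC RNAs, 120 (59.4%) had at least 10 counts in all 6 libraries, 72 (35.6%) reached the minimum in SEM::EGR3 only and 10 (4.95%) in SEM::mock only. Of all 15671 genes that met the same count rule, 16.7% passed through SEM::EGR3 only and 1.6% through SEM::mock only. The minimum of 10 counts was easier to reach in the deeper SEM::EGR3 libraries. At a common threshold of 1.96 CPM in each library, 157 LINC RNAs remained, of which 33 (21.0%) passed in SEM::EGR3 only and 24 (15.3%) in SEM::mock only. The corresponding shares of 14550 genes at that threshold were 12.1% and 3.35%. The LINC shares were the larger ones at either threshold and in both directions, a difference that was not tested, and LINC RNAs are also of lower abundance than genes at large.

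The members were of low abundance. Their mean level over the 6 libraries was 3.51 CPM in the median and ranged from 0.704 to 146.4 CPM, with 46 RNAs at 10 CPM or more and 120 under 5 CPM. Together they took 0.192 to 0.198% of the counts of a SEM::mock library and 0.174 to 0.176% of the counts of a SEM::EGR3 library. Their summed level was 2023, 2052 and 1990 CPM in the SEM::mock libraries and 1719, 1714 and 1708 CPM in the SEM::EGR3 libraries. In the GENCODE annotation of GRCh38, to which the gene positions below refer, the members lay on 23 chromosomes, with 30 on chromosome 1 and 12 on chromosome 14. Their exonic length was 2625 bases in the median. The gene type deposited with the counts was not noncoding for every member, since LINC00634 and LINC00672 were listed as protein-coding. The exons of 61 members overlapped those of another gene, 23 on the same strand and 47 on the opposite strand, and reads of overlapping genes may be shared between them because the strand setting of the counting is not given in the sources used here.

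**Figure D1:**
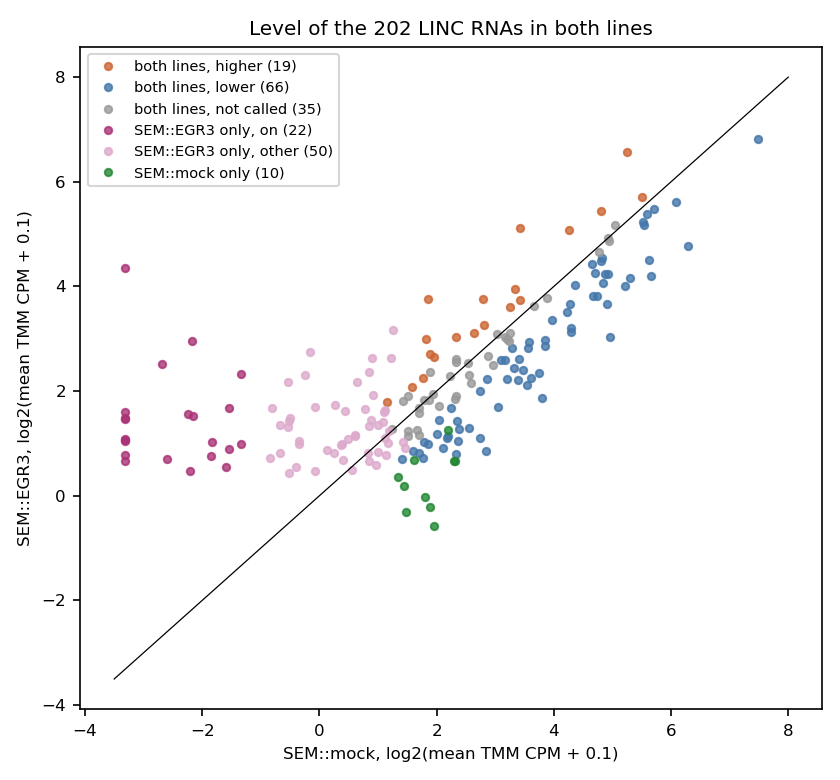
Level of each of the 202 LINC RNAs in SEM::mock (horizontal axis) and SEM::EGR3 (vertical axis), as log2 of the mean TMM-normalized CPM of 3 libraries plus 0.1; the line marks equal levels. The 66 RNAs that fell (blue) lie below the line, the 22 that were on in SEM::EGR3 (purple) form the left edge, and no RNA sits at the lower edge.

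On/off cases were found in 1 direction only. A LINC RNA was called on in SEM::EGR3 when it had at least 10 counts in each SEM::EGR3 library and at most 3 in each SEM::mock library. There were 22 such RNAs (10.9% of the members), against 6.09% of all genes that met the count rule. The reverse pattern, on in SEM::mock with at most 3 counts in each SEM::EGR3 library, was seen for 0 LINC RNAs and for 0.0% of all 15671 genes. At the common threshold of 1.96 CPM, 10 of 157 LINC RNAs were on in SEM::EGR3, against 4.56% of 14550 genes. Again 0 LINC RNAs and 0 genes of any kind showed the reverse. The limit of 3 counts in the off line stayed in raw counts. It stood for 0.50 to 0.59 CPM in SEM::mock and 0.19 to 0.40 CPM in SEM::EGR3. Off was therefore the stricter call in SEM::EGR3, and how far depth made the pattern go in 1 direction was not tested. B-lineage markers such as EBF1 and PAX5 had the same on pattern, and their part in it was not tested.

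LINC01108 (ENSG00000226673, chromosome 6, 14280127 to 14285454, minus strand) had the highest level of the on RNAs. No SEM::mock library held a count of it, and the SEM::EGR3 libraries held 303, 172 and 169, or 20.5 ± 2.38 CPM (SD, n = 3). Set against 3 counts per SEM::mock library, its SEM::EGR3 level was at least 37.9-fold higher. Its nearest protein-coding gene is CD83, which encodes a surface protein of activated B cells and dendritic cells and lies 143.2 kb away. CD83, at 11.8 CPM in SEM::mock and 14.1 CPM in SEM::EGR3, was not called (log2 fold change 0.24 ± 0.13 SE, adjusted p = 0.115, edgeR).

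A further 8 on RNAs had 0 counts in every SEM::mock library. LINC00528 (chromosome 22, 17777322 to 17779481) had 43, 21 and 29 counts in SEM::EGR3 and was at least 5.43-fold higher. LINC01574 (chromosome 5, 176743205 to 176743871) had 52, 19 and 20 counts, at least 5.01-fold higher. LINC00426 (chromosome 13, 30340270 to 30377145), which is used as a marker of T and NK cells, had 51, 16 and 23 counts, at least 4.93-fold higher. In CPM, which allow for the greater depth of SEM::EGR3 replicate 1, these 3 RNAs were at 2.16 to 3.35 in every SEM::EGR3 library. LINC02247, LINC01800, LINC02328, LINC02688 and LINC02716 had 11 to 36 counts in the SEM::EGR3 libraries, with lower bounds on the fold between 2.73 and 3.72. These bounds set the mean SEM::EGR3 level against a fixed 3 counts per SEM::mock library and are no confidence limits. The intervals that follow cover counting error only.

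The other 13 on RNAs had 1 to 5 counts summed over the SEM::mock libraries. LINC02690 (chromosome 11, 45750823 to 45751871) was read 0, 1 and 1 times in SEM::mock libraries and 112, 65 and 63 times in those of SEM::EGR3, a ratio of 62.8 with a 95% counting interval of 17.2 to 521.4. LINC00898 (chromosome 22, 47621043 to 47631569) had 0, 1 and 0 counts against 73, 56 and 42, a ratio of 89.5 (interval 15.8 to 3554). Both ratios rest on at most 2 SEM::mock reads, and their upper ends are hardly limited by the data. LINC00523 (chromosome 14, 100657250 to 100676069) had 2, 2 and 1 counts against 76, 35 and 47, a ratio of 16.5 (interval 6.94 to 51.6). It was the 1 on RNA with an exon overlap, with AL132711.1 on the opposite strand. LINC02363 on chromosome 4 had 3, 0 and 1 counts against 44, 30 and 22, a ratio of 12.6 (interval 4.75 to 47.0). The remaining 9 were LINC00620, LINC00996, LINC01300, LINC01416, LINC01504, LINC01602, LINC01869, LINC01954 and LINC02801. Their counts in SEM::EGR3 ran from 10 to 57, their ratios from 5.76 for LINC01869 to 25.6 for LINC01954, and the lowest bound of any of these intervals was 2.10.

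**Figure D2:**
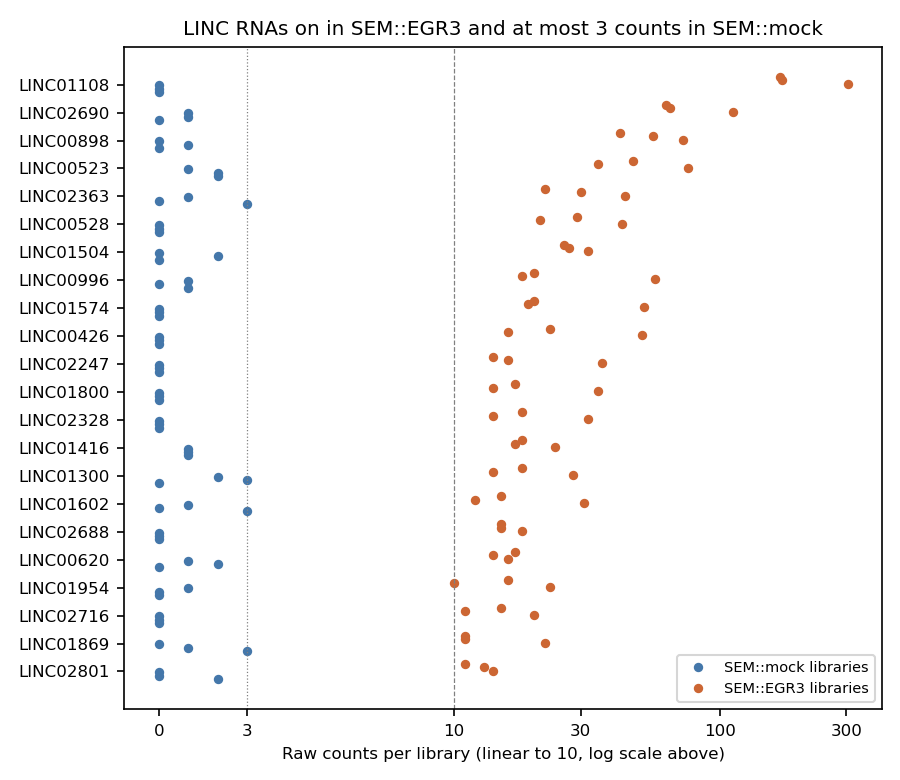
Raw counts of the 22 LINC RNAs that were on in SEM::EGR3, 1 point per library, on an axis that is linear to 10 and logarithmic above, with lines at 3 and 10 counts. The RNAs are ordered by mean CPM in SEM::EGR3; LINC01108 stands at 169 to 303 counts, and most of the others at 10 to 60.

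The protein-coding genes nearest to the on RNAs did not share a direction, and lay within 100 kb for 18 of the 22. Of the 22 RNAs, 16 had a nearest protein-coding gene that could be tested; this gene was higher in SEM::EGR3 for 9, lower for 6 and, with CD83, not called for 1, where 36.5% of all 15465 tested genes were higher and 32.0% lower. BID, a pro-apoptotic BH3-only protein whose gene lies 2.55 kb from LINC00528, fell from 121.2 to 36.5 CPM (log2 fold change -1.74 ± 0.07 SE, adjusted p = 6.28e-17, edgeR). TCF4, an E protein of lymphoid and dendritic cells 216.9 kb from LINC01416, fell from 116.9 to 47.3 CPM (log2 fold change -1.30 ± 0.09 SE, adjusted p = 2.08e-12). FBLN2, which encodes the matrix protein fibulin-2 and is nearest to LINC00620, fell from 15.5 to 4.16 CPM. RXRA, a retinoid receptor nearest to LINC02247, fell from 65.0 to 53.4 CPM (log2 fold change -0.30, adjusted p = 0.000881).

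Other neighbours rose with their LINC RNA. DLK1, an imprinted gene for a NOTCH-related ligand 49.6 kb from LINC00523, rose from 407.9 to 1031 CPM (log2 fold change 1.34 ± 0.05 SE, adjusted p = 1.54e-17, edgeR). IRF2, an interferon regulatory factor 33.7 kb from LINC02363, rose from 11.5 to 24.3 CPM (log2 fold change 1.07, adjusted p = 3.43e-08). SERTAD2 rose from 68.7 to 137.5 CPM beside LINC01800, and ZFAND5 from 63.1 to 104.0 CPM beside LINC01504. UNC5A, a netrin receptor gene 66.6 kb from LINC01574, had 0 counts in SEM::mock and a level of 8.49 CPM in SEM::EGR3. MUC6, a gastric mucin gene 13.2 kb from LINC02688, was at 0.131 CPM in SEM::mock and 3.35 CPM in SEM::EGR3. KATNAL1, TBC1D22A and KLK1, the nearest protein-coding genes of LINC00426, LINC00898 and LINC01869, rose with log2 fold changes of 0.63, 0.66 and 0.70. TBC1D22A lies as far as 445.3 kb from LINC00898.

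LINC02690 and LINC02716 form a pair on chromosome 11, on opposite strands and 19561 bases apart, and both were on. They share their nearest protein-coding gene, the GDP-fucose transporter gene SLC35C1, which fell from 25.8 to 17.8 CPM (log2 fold change -0.56, adjusted p = 5.11e-05) and so counts for both among the 6 lower neighbours. LINC00996 lies 2.49 kb from GIMAP8, a gene of the lymphocyte GIMAP cluster, which had a level of 0 CPM in SEM::mock and 1.06 CPM in SEM::EGR3 and was too low to be tested. GPR20, FAM110B, KCNF1, FLRT2 and AC093155.3 near LINC01300, LINC01602, LINC01954, LINC02328 and LINC02801 were likewise not tested.

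The remaining 50 RNAs that reached the minimum in SEM::EGR3 only had some counts in SEM::mock. Their ratio of SEM::EGR3 to SEM::mock ran from 0.672 to 8.31 with a median of 1.66, 18 of them had a ratio under 1.5, and 10 had the higher mean in SEM::mock. The highest ratios named here, picked after the values were seen, belonged to LINC01140, LINC00461 and LINC01134. LINC01140 was read 4, 3 and 6 times in SEM::mock libraries and 120, 29 and 74 times in those of SEM::EGR3, which is 8.31-fold higher in CPM. LINC00461, a conserved RNA beside MEF2C that is known from brain and hosts miR-9-2, had 3, 5 and 2 counts against 85, 34 and 29 (7.54-fold). LINC01134 had 4, 3 and 1 counts against 52, 24 and 24 (6.57-fold).

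The 10 RNAs found through SEM::mock only missed 10 counts in at least 1 of the deeper SEM::EGR3 libraries, so that a higher level in SEM::mock is largely fixed by their selection and is given as a description. Their ratio of SEM::mock to SEM::EGR3 ran from 1.95 to 6.59. LINC01357 was read 25, 11 and 26 times in SEM::mock libraries and 6, 5 and 6 times in those of SEM::EGR3, or 3.79 ± 1.72 and 0.575 ± 0.163 CPM (SD, n = 3). LINC00648 had 26, 14 and 20 counts against 20, 0 and 9. LINC01436, 0.671 kb from RUNX1, a core hematopoietic transcription factor gene, had 13, 17 and 15 counts against 11, 8 and 3, while RUNX1 rose from 61.1 to 156.3 CPM (log2 fold change 1.35, adjusted p = 9.51e-16, edgeR). All of these RNAs were still read in SEM::EGR3, with at least 17 counts over its libraries together. The others were LINC00173, LINC00355, LINC00534, LINC01588, LINC01667, LINC01793 and LINC01976. SEM::EGR3 replicate 2 has the lowest depth of its line, and without it 5 RNAs remained in this group.

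At the edge of the selection, LINC01954, LINC01409 and LINC00672 were just inside, with a lowest count of 10 in SEM::EGR3. LINC02193, LINC01220 and LINC02228 were just outside with a lowest count of 9 in SEM::mock. LINC02193 was read 9, 17 and 9 times in SEM::mock libraries and 34, 3 and 9 times in those of SEM::EGR3. In all, 11 members stood at the minimum of 10 counts and 10 LINC RNAs just below it.

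Most LINC RNAs present in both lines were lower in SEM::EGR3. Of the 120 RNAs with at least 10 counts in every library, 66 (55.0%) fell, 19 (15.8%) rose and 35 did not pass the test (adjusted p under 0.05, quasi-likelihood test of edgeR, adjusted by Benjamini and Hochberg over 15465 genes). Of all 12801 genes that met the same minimum in all 6 libraries, 36.5% fell and 30.2% rose. The median log2 fold change was -0.45 for the LINC RNAs and -0.05 for all these genes, whose median level was 28.1 CPM against 7.99 CPM for the LINC RNAs. With a log2 fold change of at least 1 in size, 28 LINC RNAs (23.3%) were lower and 4 (3.33%) higher, against 8.45% and 7.32% of all these genes. The libraries of the lines did not overlap for 85 of the 120 RNAs (70.8%, against 68.6% of all these genes), among them 60 of those that fell and 18 of those that rose.

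A minimum count in the shallower SEM::mock libraries removes RNAs that are low there, and so favours RNAs that fell. The comparison was therefore repeated for LINC RNAs with a mean of at least 2 CPM over the 6 libraries, a filter chosen after seeing the data. Of these 154 RNAs, 73 (47.4%) fell and 35 (22.7%) rose, against 33.7% and 35.1% of 14271 genes. All of the 154 had met the count rule, some of them in SEM::EGR3 only or in SEM::mock only. Their calls were not separated from those of RNAs counted in both lines. At a mean of at least 5 CPM, 47 of 82 RNAs (57.3%) fell and 17 (20.7%) rose, against 36.1% and 34.3% of 11946 genes. This set still took in RNAs that met the count rule in SEM::EGR3 only. The RNAs that fell outnumbered those that rose with each of these filters, at a ratio that depended on the filter. Of the RNAs counted in both lines, 76 had no exon overlap, and of these 44 fell and 10 rose. The shares for all genes without exon overlap were not determined, so that these counts have no background to be set against.

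Among the 120 RNAs with at least 10 counts in every library, LINC00665 and LINC00909 had the largest increases. LINC00665 (ENSG00000232677, chromosome 19, 36313067 to 36331718, minus strand), an RNA studied in several carcinomas, was at 4.24, 2.51 and 3.73 CPM in SEM::mock and 14.7, 12.3 and 13.5 CPM in SEM::EGR3. The lines were well apart, with a log2 fold change of 1.98 ± 0.19 (SE, adjusted p = 1.08e-09). ZFP14, the zinc finger gene 2.74 kb away, also rose (log2 fold change 0.90, adjusted p = 0.00219). LINC00909 (chromosome 18, 74591774 to 74598508) was at 9.01, 12.6 and 10.4 CPM against 36.3, 32.5 and 34.4 CPM, a log2 fold change of 1.69 ± 0.12 (SE, adjusted p = 2.56e-12). It lies within the gene body of ZNF407, on the opposite strand, and ZNF407 rose from 4.25 to 8.76 CPM (log2 fold change 1.04, adjusted p = 3.52e-05).

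LINC00963 (ENSG00000204054, chromosome 9, 129483451 to 129513686, plus strand), studied in prostate cancer, was the second most abundant member and the most abundant of those that rose. Its levels were 40.5, 38.5 and 34.5 CPM in SEM::mock and 93.0, 99.6 and 92.6 CPM in SEM::EGR3, with a log2 fold change of 1.32 ± 0.07 (SE, adjusted p = 3.82e-14). NTMT1, its nearest protein-coding gene at 95.2 kb, fell from 99.8 to 66.4 CPM. LINC02210 rose with a log2 fold change of 1.21 ± 0.22 (SE, adjusted p = 2.69e-05), and its exons are shared with the read-through gene LINC02210-CRHR1 on the same strand, so that its counts are uncertain.

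The other 6 of the 10 largest increases among these RNAs had log2 fold changes from 0.68 to 0.97. LINC00476 (6.86 ± 1.40 and 13.5 ± 1.02 CPM) has exons opposite those of ERCC6L2, and LINC00863 (3.62 ± 0.588 and 6.48 ± 1.07 CPM) exons in common with NUTM2D. LINC00205 rose from 19.0 ± 1.73 to 33.6 ± 1.55 CPM (SD, n = 3), while POFUT2, whose gene lies 0.152 kb away on the other strand, was at 18.4 and 17.2 CPM and was not called (adjusted p = 0.411, edgeR). LINC01004 rose from 4.96 ± 1.14 to 8.09 ± 1.45 CPM, and KMT2E, 1.14 kb away, rose by a log2 fold change of 0.18. LINC00853 (0.70, adjusted p = 0.00571) and LINC00630 (0.68, adjusted p = 0.0272) were less secure. LINC00853 lost its call without SEM::mock replicate 3 (adjusted p = 0.0569). LINC00630 lost it without SEM::mock replicate 1, SEM::mock replicate 3 or SEM::EGR3 replicate 1 (adjusted p = 0.13, 0.0893 and 0.103).

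Among these 120 RNAs, LINC01391, LINC02805 and LINC00926 had the largest decreases. LINC01391 (ENSG00000244578, chromosome 3, 138935189 to 138944020, minus strand) was at 7.60, 6.03 and 7.65 CPM in SEM::mock and 1.42, 1.48 and 2.21 CPM in SEM::EGR3, a log2 fold change of -2.08 ± 0.24 (SE, adjusted p = 3.12e-08). FOXL2, a forkhead transcription factor gene 0.204 kb away on the same strand, fell from 160.5 to 57.2 CPM (log2 fold change -1.49, adjusted p = 4.01e-16). LINC02805 on chromosome 1 was at 35.7, 29.1 and 28.2 CPM against 7.61, 9.30 and 7.41 CPM, a log2 fold change of -1.96 ± 0.12 (SE, adjusted p = 5.99e-13). It lies among the NBPF genes, a region of near-identical copies in which reads may be split. LINC00623 (-1.50) and LINC01138 (-0.98, adjusted p = 1.09e-06, edgeR) lie in similar duplicated stretches of chromosome 1.

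LINC00926 (ENSG00000247982, chromosome 15, 57300365 to 57307769, plus strand) is used as a B cell marker in single-cell data. It fell from 12.4, 17.3 and 11.96 CPM in SEM::mock to 3.87, 3.10 and 3.76 CPM in SEM::EGR3, a log2 fold change of -1.93 ± 0.18 (SE, adjusted p = 9.24e-10). Its direction was opposite to that of the B-lineage marker genes and to that of TCF12, an E protein gene 1.08 kb away, which rose from 42.2 to 62.7 CPM (log2 fold change 0.58, adjusted p = 1.62e-07).

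The other 6 of the 10 largest decreases among them had log2 fold changes between -1.72 and -1.40. LINC00520, which is studied in carcinomas, had the highest level among them, falling from 73.3, 81.7 and 80.2 CPM to 27.2, 27.9 and 26.4 CPM (log2 fold change -1.53 ± 0.07 SE, adjusted p = 2.47e-15). LINC01029 fell from 50.7 ± 1.10 to 18.3 ± 3.87 CPM and LINC02506 from 11.6 ± 2.34 to 4.25 ± 0.517 CPM. LINC02577 fell from 12.1 ± 1.195 to 4.67 ± 0.972 CPM (SD, n = 3), as did PIK3CG, which encodes a catalytic subunit of PI3 kinase and lies 26.8 kb away (log2 fold change -1.27, adjusted p = 6.80e-12). LINC02404 and LINC00944 were at 2.05 ± 0.334 and 1.65 ± 0.323 CPM in SEM::EGR3, from 6.59 ± 1.11 and 4.92 ± 0.734 CPM.

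**Figure D3:**
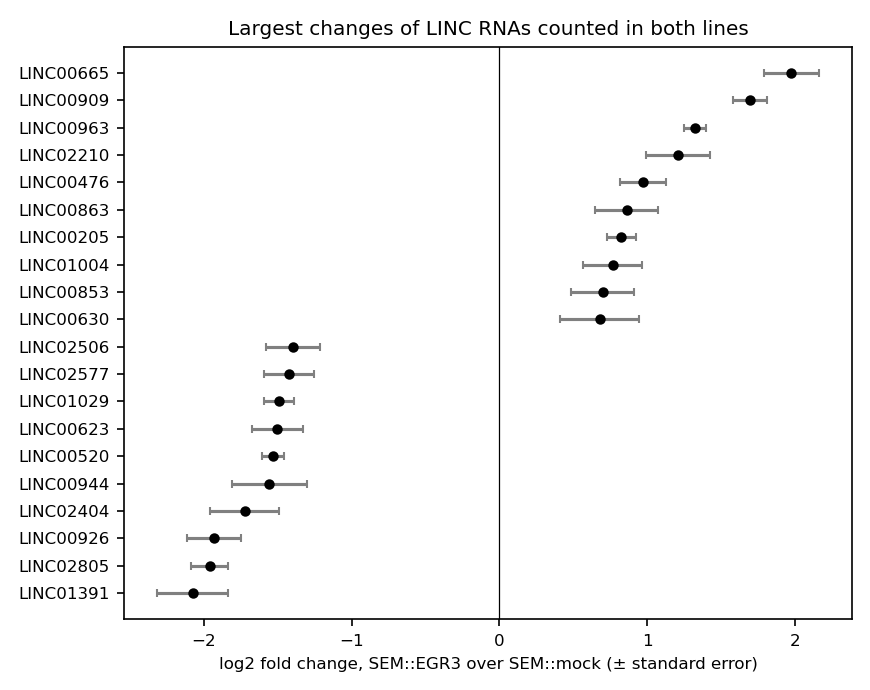
Fitted log2 fold change, SEM::EGR3 over SEM::mock, of the 10 largest increases and 10 largest decreases among LINC RNAs with at least 10 counts in every library; points are estimates and bars standard errors. The increases run from 0.68 to 1.98 and the decreases from -1.40 to -2.08.

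The 10 most abundant members held 32.2% of the summed LINC level in SEM::mock and 30.3% in SEM::EGR3. LINC02772 (ENSG00000271736, chromosome 1, 157280716 to 157283068, plus strand) alone was at 182.2, 180.4 and 176.5 CPM in SEM::mock and 111.7, 112.2 and 115.7 CPM in SEM::EGR3, a log2 fold change of -0.67 ± 0.05 (SE, adjusted p = 7.56e-11). Besides LINC00963, only LINC00649 of these RNAs was higher in SEM::EGR3, at 45.1 ± 3.36 and 52.3 ± 1.03 CPM (SD, n = 3). LINC00649 has exons opposite those of ATP5PO, and its call (adjusted p = 0.0168) was lost without SEM::mock replicate 1 or 3 (adjusted p = 0.0515 and 0.148). LINC02864 fell from 49.0 ± 1.57 to 22.8 ± 1.46 CPM, LINC00958 from 67.9 ± 8.60 to 48.8 ± 4.001 CPM, LINC01234 from 46.6 ± 6.10 to 36.2 ± 0.957 CPM and LINC01006 from 45.6 ± 3.14 to 37.7 ± 2.78 CPM. The decreases of LINC00467 (log2 fold change -0.23, adjusted p = 0.0132) and LINC01287 (-0.21, adjusted p = 0.0164) were small. LINC00467 was not called without SEM::mock replicate 2 or SEM::EGR3 replicate 1 (adjusted p = 0.0861 for both), nor LINC01287 without SEM::mock replicate 2 or SEM::EGR3 replicate 2 (adjusted p = 0.0735 and 0.0583). Without normalization factors neither was called (adjusted p = 0.096 and 0.126).

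**Figure D4:**
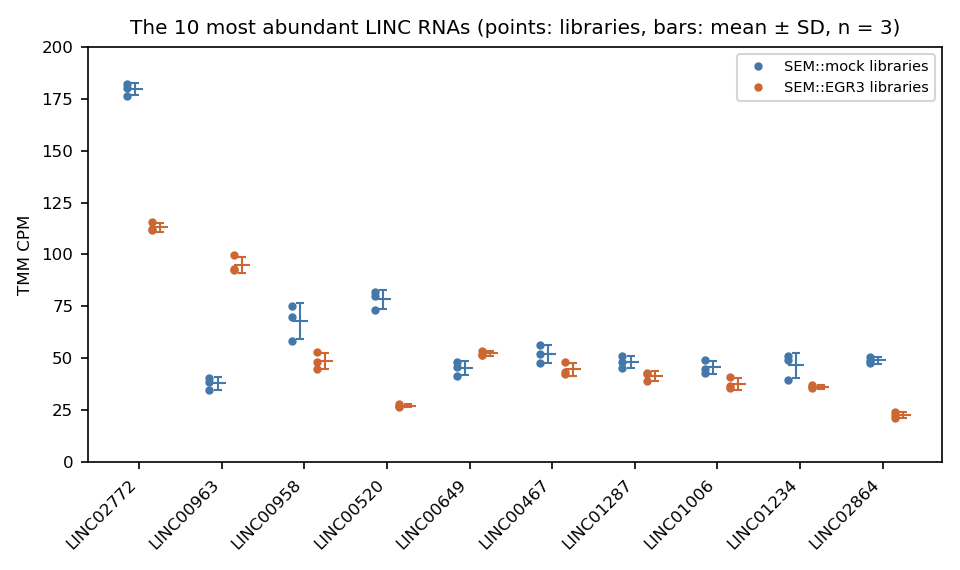
TMM-normalized CPM of the 10 most abundant LINC RNAs in SEM::mock (blue) and SEM::EGR3 (orange); points are libraries, bars the mean ± SD of 3. LINC00963 rises from 37.8 to 95.1 CPM, while LINC02772, LINC00520 and LINC02864 are lower in every SEM::EGR3 library.

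Lists of LINC RNAs with a known use or role gave no common direction. Of 4 B cell markers, LINC00926 fell, LINC01857 had 0 counts in all libraries, LINC02397 had 1, 2 and 1 counts in SEM::EGR3 and 0 in SEM::mock, and LINC01781 was not listed under this name. Of 7 T or NK cell markers, LINC00426 was on in SEM::EGR3, and LINC00861 was at 1.69 ± 0.460 and 1.49 ± 0.337 CPM (SD, n = 3) with overlapping libraries. LINC02273 was seen at 7, 2 and 10 counts in SEM::EGR3 and 0 in SEM::mock, LINC00892 and LINC01550 had at most 1 count per library, and LINC01871 and LINC02446 were not listed. Of 3 myeloid markers, LINC01094 was at 3.16 ± 0.896 and 2.13 ± 0.0277 CPM and was not called (adjusted p = 0.0765, edgeR; 0.0367 without SEM::mock replicate 2). LINC00877 was at 1.70 ± 0.613 and 2.41 ± 0.463 CPM with overlapping libraries, and LINC01272 was not listed.

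Of 12 widely expressed LINC RNAs with a studied role, 7 were counted in both lines. LINC00665 and LINC00662 rose, LINC01138 and LINC00467 fell, and LINC00339, LINC01089 and LINC00324 were not called. LINC00662 was at 10.7 ± 1.63 and 13.2 ± 0.751 CPM (log2 fold change 0.32, adjusted p = 0.0454, edgeR). It lost its call without SEM::mock replicate 1 or 2 (adjusted p = 0.30 and 0.0642) and without SEM::EGR3 replicate 1 or 2 (adjusted p = 0.117 and 0.0736). LINC01138 fell from 14.3 ± 1.07 to 7.18 ± 0.438 CPM, LINC00339 was at 27.1 ± 2.56 and 25.1 ± 3.37 CPM, LINC01089 at 14.7 ± 3.24 and 13.6 ± 3.35 CPM and LINC00324 at 3.56 ± 0.679 and 3.47 ± 1.04 CPM. LINC00511 had at most 5 counts per library, and the other 4 were not listed under these names. The same was true of all 7 LINC symbols once given to genes that encode a microprotein.

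Neighbouring protein-coding genes were compared with the LINC RNAs counted in both lines, since their levels were not used in the selection. Of 62 such RNAs with a tested protein-coding gene within 100 kb, 36 (58.1%) moved in the direction of that gene. This share is a description, since the pairs were measured in the same 6 libraries and are not independent of each other. Protein-coding genes and their own nearest protein-coding gene had the same direction in 58.0% of 7327 pairs. Where both members of the pair passed the test, 27 of 37 (73.0%) agreed in sign, against 63.3% of 3734 coding pairs. Besides LINC01391 with FOXL2 and LINC02577 with PIK3CG, LINC00958 fell with TEAD1. LINC00926 with TCF12 and LINC00963 with NTMT1 went opposite ways.

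**Figure D5:**
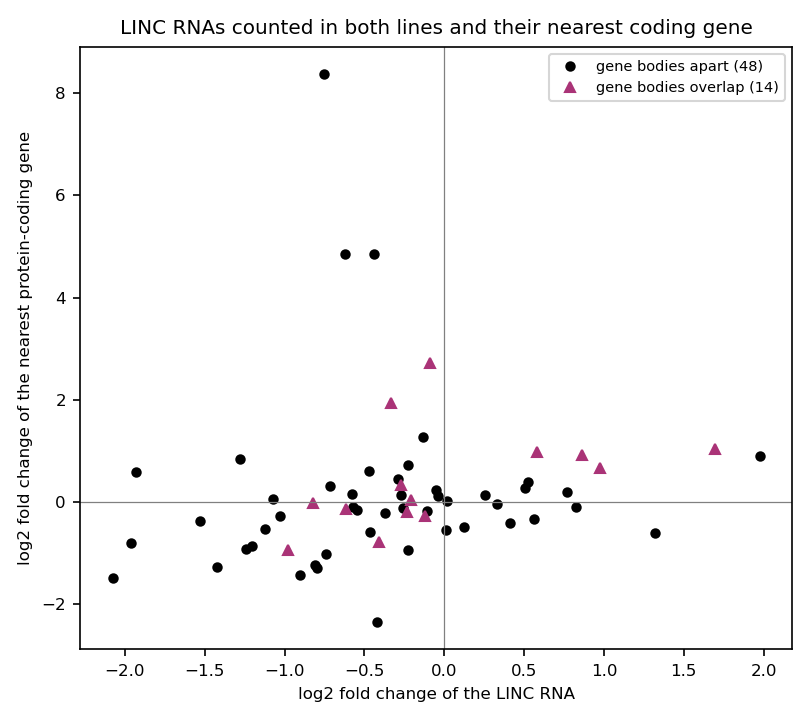
Log2 fold change (SEM::EGR3 over SEM::mock) of 62 LINC RNAs counted in both lines, against that of their nearest tested protein-coding gene within 100 kb; circles are pairs with separate gene bodies (48), triangles overlapping bodies (14). The points fill all quadrants, with 36 of 62 in the quadrants of equal sign.

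RefSeq promoter sequences (GRCh38.p14, 250 bases before to 50 after the start) were available for 123 of the 202 RNAs and were searched on both strands for the EGR consensus in the forms GCGTGGGCG and GCGGGGGCG. At least 1 form was present in 11 of the 123 promoters (8.94%), in 1.84% of all 1739 LINC promoters and in 5.77% of all 35116 promoters of the table. It was present in 4 of 15 promoters of RNAs that rose (26.7%), 1 of 34 of RNAs that fell (2.94%, LINC00960), 1 of 21 of RNAs not called (4.76%, LINC01569), 1 of 13 of RNAs that were on (7.69%, LINC02247) and 4 of 40 of the other RNAs found in 1 line only (10.0%, LINC00685, LINC00886, LINC01971 and LINC02356). The promoters of the RNAs that rose were also the richest in G and C, with a median of 68.3% against 56.2% for those that fell, 51.7% for the on RNAs, 60.5% for the other RNAs found in 1 line only and 47.7% for all LINC promoters. The 4 promoters with a motif among the RNAs that rose belong to LINC00963, LINC01136, LINC00526 and LINC00667, and the last 2 of these share a motif. The promoters below are shown because they carry a motif in an RNA that rose or was on, with the motif in capitals, and LINC01108 is shown as the strongest on RNA.

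For LINC00963 (chr9:129488410-129488709, plus strand) the motif begins 127 bases before the start, on the opposite strand, in a promoter of 78.0% G and C. This start is that of RefSeq and lies inside the GENCODE gene positions given above, so that the annotations differ in where the gene begins. The RNA rose by 1.32 on the log2 scale.
LINC00963: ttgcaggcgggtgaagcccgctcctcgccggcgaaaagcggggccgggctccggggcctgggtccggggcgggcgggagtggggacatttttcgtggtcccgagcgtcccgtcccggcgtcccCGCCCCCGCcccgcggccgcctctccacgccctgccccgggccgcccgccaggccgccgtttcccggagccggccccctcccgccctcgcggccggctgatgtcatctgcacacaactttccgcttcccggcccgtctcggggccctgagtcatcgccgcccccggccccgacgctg

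LINC00667 (chr18:5237850-5238149, plus strand) and LINC00526 (chr18:5237980-5238279, minus strand) are transcribed away from overlapping promoters that hold the same motif. Both rose, LINC00667 from 28.0 ± 2.15 to 43.4 ± 0.849 CPM (log2 fold change 0.63 ± 0.08 SE, adjusted p = 3.47e-07, edgeR) and LINC00526 from 6.93 ± 1.43 to 9.50 ± 0.612 CPM (0.46, adjusted p = 0.0179). LINC00526 was not called without SEM::mock replicate 3 or SEM::EGR3 replicate 1 (adjusted p = 0.149 and 0.0781). Their exons overlap on opposite strands, so that reads may be shared.
LINC00667: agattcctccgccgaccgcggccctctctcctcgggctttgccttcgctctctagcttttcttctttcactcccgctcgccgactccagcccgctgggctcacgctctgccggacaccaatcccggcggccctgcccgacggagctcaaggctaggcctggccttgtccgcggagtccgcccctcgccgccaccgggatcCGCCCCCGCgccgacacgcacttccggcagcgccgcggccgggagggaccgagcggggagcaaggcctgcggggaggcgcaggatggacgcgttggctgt

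LINC01136 (chr1:203305276-203305575, minus strand) lies 0.182 kb from BTG2, an antiproliferative gene on the other strand. It was at 4.24, 2.35 and 3.33 CPM in SEM::mock and 5.74, 4.31 and 3.98 CPM in SEM::EGR3, with overlapping libraries (log2 fold change 0.56, adjusted p = 0.0463, edgeR), while BTG2 fell from 169.0 to 134.6 CPM. The call of LINC01136 was lost without SEM::mock replicate 2 or 3 (adjusted p = 0.281 and 0.0992) or SEM::EGR3 replicate 1 (adjusted p = 0.30).
LINC01136: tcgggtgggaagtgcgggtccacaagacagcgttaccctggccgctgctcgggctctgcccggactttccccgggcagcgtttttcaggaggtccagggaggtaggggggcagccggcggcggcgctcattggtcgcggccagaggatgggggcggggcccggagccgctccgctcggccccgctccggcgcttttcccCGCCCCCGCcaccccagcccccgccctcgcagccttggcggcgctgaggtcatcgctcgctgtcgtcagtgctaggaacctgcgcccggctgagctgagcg

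LINC02247 (chr9:134295348-134295647, minus strand), with 0 counts in SEM::mock and 36, 16 and 14 in SEM::EGR3, carries the motif 231 bases before the start.
LINC02247: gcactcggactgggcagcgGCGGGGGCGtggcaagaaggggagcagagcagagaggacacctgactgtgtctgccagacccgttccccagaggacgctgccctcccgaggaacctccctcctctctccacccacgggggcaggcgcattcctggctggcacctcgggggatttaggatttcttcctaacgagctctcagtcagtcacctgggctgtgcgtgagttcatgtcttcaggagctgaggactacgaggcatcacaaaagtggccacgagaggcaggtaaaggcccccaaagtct

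The promoter of LINC01108 (chr6:14285405-14285704, minus strand) holds neither form and has a G and C content of 36.7%. The absence says only that these letters are not in this window.
LINC01108: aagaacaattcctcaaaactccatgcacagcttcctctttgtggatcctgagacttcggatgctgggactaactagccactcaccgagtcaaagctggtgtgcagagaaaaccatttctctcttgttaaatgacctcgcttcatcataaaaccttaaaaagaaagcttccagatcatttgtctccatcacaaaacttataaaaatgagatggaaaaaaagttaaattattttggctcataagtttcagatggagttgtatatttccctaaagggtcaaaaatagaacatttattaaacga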

How the data were processed

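MACE-Seq libraries of 3 SEM::mock and 3 SEM::EGR3 replicates were grouped by the sample labels, and column headings spelling the gene ERG3 were read as SEM::EGR3. The table that the authors deposited holds whole counts per gene, CPM named TPM, size-factor normalized signal, and log2 fold changes with p-values of their own comparison, which were not used. The submitters' processing notes name bcl2fastq, Bowtie2, HTSeq and GRCh38. No molecule identifier handling is given in the sources used here. 0 columns of per-sample values were left unmapped.

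Counts were filtered (filterByExpr), TMM-normalized and tested with edgeR 4.0.16 (glmQLFit, glmQLFTest) in R 4.3.3 over all 6 libraries without a further term. Benjamini-Hochberg adjustment was over 15465 genes. The procedure was tested on simulated data in which far fewer genes changed than were called here, so that this check does not cover the present setting. All 120 RNAs with at least 10 counts in every library passed this filter, as did 58 of 72 and all 10 of those found through SEM::EGR3 or SEM::mock only. Gene positions are from GENCODE release 29 (GRCh38), which holds all 202 members, 25 under another symbol. Promoter positions and starts are from RefSeq and can differ from those of GENCODE.

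The members, marker lists and LINC lists were chosen with earlier results of these data known. Named were every on RNA with its nearest protein-coding gene, the 10 largest increases and decreases with an adjusted p under 0.05 and non-overlapping libraries, the 10 most abundant, the list members and the RNAs at the count limit; further names were chosen after the values were seen. Alternatives were DESeq2 1.42.0, other normalizations, filters and thresholds, the replicate number as a term and leaving out each library. The summed level of the erythroid marker list is not reported here.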

Additional observations from a re-analysis of the deposited data

How the results depend on the processing

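For LINC RNAs counted in both lines, 19 rose and 66 fell. DESeq2 called 11 and 55, and the cause of the lower count was not tested. With a log2 fold change of at least 1, 4 rose and 28 fell. A mean of at least 2 or 5 CPM (added after seeing the data) also took in RNAs found through 1 line only. With it, 35 and 17 rose and 73 and 47 fell. Without 1 library, 13 to 17 of the RNAs counted in both lines rose and 58 to 63 fell. The other normalizations and the filters on tested genes gave 15 to 20 and 56 to 66. The median of all genes shifted by 0.08 without normalization factors. DESeq2 did not call LINC00467, LINC00526, LINC00630, LINC00649, LINC00662, LINC01136 and LINC01287 (adjusted p = 0.0501 to 0.161). Of 37 named RNAs with a test, 26 kept direction and call under all 13 alternatives. With 1 library left out, the log2 fold change of LINC00324 ran from -0.32 to 0.15 (0.02 without SEM::mock replicate 3, 0.15 without SEM::EGR3 replicate 1) and that of LINC01089 from -0.31 to 0.10 (0.10 without SEM::mock replicate 2, 0.08 without SEM::EGR3 replicate 3), and neither was called.

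With at least 20 counts, 131 members remained, 79 through both lines and 40 through SEM::EGR3 only. With the common CPM threshold, SEM::EGR3 only held 33 and SEM::mock only 24. Without 1 library, the members numbered 202 to 226, SEM::EGR3 only 65 to 96, SEM::mock only 5 to 14 and on RNAs 22 to 31. The 22 on RNAs became 9 with 0 counts allowed in SEM::mock, 14 with at most 1 and 10 with the common CPM threshold. Fewer RNAs can pass these stricter limits by construction. With the looser limit of at most 5 counts in the off line, 33 were on in SEM::EGR3 and 0 in SEM::mock. The summed level was 2022 CPM in SEM::mock (1968 without normalization factors, 1842 without LINC02772) and 1714 CPM in SEM::EGR3 (1760, 1600, and 1723 with upper-quartile factors). Low depth in SEM::mock limits what can be called absent there.

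Replicates with the same number did not deviate together (correlations of -0.199, -0.138 and -0.0691 over 11503 genes). Deviations were taken from the mean of 3 libraries per line, so that this cannot exclude that equal numbers were prepared together. With the replicate block, 14 rose and 62 fell, and of the named RNAs LINC00630, LINC00662 and LINC01136 lost their call.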
